A study of Mus musculus with 26 samples.

Results

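The levels of 8 genes that set how strongly T-cell receptor signalling runs were followed in CD4 and CD8 double positive (DP) cells from 3 sites of the mouse. These are the Tec family kinase Txk, the adaptors Sla and Sla2, the kinase Csk, the phosphatases Ptpn6 and Ptpn22, the ubiquitin ligase Cblb and the suppressor Ubash3a. They were taken from the deposited matrix by these 8 symbols. All 8 were found among its 13765 genes, and all 8 are among the 9106 genes that were tested. The symbols were selected on their normalised read counts and tissue differences in these same 12 pools, so their values and calls are a description of these pools and support nothing about the genes as a set.

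The cells came from aortic arch, mediastinal adipose tissue and thymus of mice of 1 strain (C57BL/6J, female, 8 weeks old); arch and adipose tissue are called the outer tissues below. The labels name no treatment and no altered allele in any group. Per the labels' protocols, viable cells that carried CD4 and CD8b and lacked the T-cell receptor at the surface were sorted after enzymatic digestion of arch and adipose tissue. Digestion is not stated for thymus. Tissue of 5 mice was joined in each pool, with 4 pools per tissue (n = 4 throughout) and 26 libraries of 200 cells in all. The deposited table gives 1 value per gene and pool. A pool combines 1 to 3 libraries, and adipose pool 2 is the value of 1 library. The series sets DP cells of these tissues side by side.

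Once a DP thymocyte carries a receptor, the strength of its signal decides whether the cell dies, lives on or is deleted. The Src family kinase Lck phosphorylates the receptor complex and the kinase Zap70, and kinases of the Tec family, Txk among them, then activate phospholipase C gamma. The brakes act at several points of this chain: Csk phosphorylates Lck at its inhibitory tyrosine, the phosphatases Ptpn22 and Ptpn6 remove activating phosphates, and the Sla adaptors and the Cbl ligases bring about ubiquitination and loss of receptor chains and kinases.

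Values are normalised read counts, the authors' reads per gene divided by a factor per pool. Recovered reads per pool ranged from 11577253 to 34599519, and 9091 to 11894 genes were detected. Arch pools 2 and 4 and thymus pool 3 had the fewest reads per library. All 12 listed markers of DP thymocytes, among them Cd4, Cd8a, Rag1 and Dntt, were detected in all 12 pools. Their summed level was 162436 to 180733 in arch, 114826 to 251809 in adipose tissue and 363118 to 432452 in thymus, so that the pools of both outer tissues lay below those of thymus. Markers of other cells were raised in 3 pools. Arch pool 2 held 22821 normalised counts of macrophage markers (11 of 12 in the table) and 40745 of smooth muscle markers (5 of 5), and arch pool 4 held 133501 of fibroblast markers (9 of 9). Arch pool 2 also held 9823 of B-cell markers, and only there were the NK-cell markers Klre1 (426) and Klrk1 (632) detected. Adipose pool 1 held 37950 of B-cell markers (9 of 11) and 5350 of macrophage markers. It also held 3599 of adipocyte markers (3 of 6) and 5404 of endothelial markers (7 of 7). Of the latter, 2006 were Pecam1, which was detected in all pools. The other 9 pools held at most 317 of macrophage markers, with Csf1r, C1qa and C1qb at 0 in each, at most 1416 of smooth muscle markers, at most 5844 of fibroblast markers, mostly Gsn, and at most 4055 of B-cell markers, mostly Cd79b, with Ms4a1 at 0 in each. Markers of T cells after selection (6 of 7) summed to 3963 to 9486 in arch, 4960 to 8160 in adipose tissue and 8619 to 11287 in thymus, although Klf2 among them had 3057 to 3652 in arch, 71.2 to 1297 in adipose tissue and 0 to 137 in thymus. Those of NK and innate lymphoid cells (8 of 11) summed to 1656 to 5361 in arch, 2486 to 4395 in adipose tissue and 3712 to 6879 in thymus. Among them Rora had 0 to 623 in arch, 317 to 1107 in adipose tissue and 0 in all thymus pools. Gata3 went the other way, with 1095 to 1906, 7.26 to 1416 and 1820 to 4763. Each difference of the 8 genes was also computed without the 3 pools with raised markers. That value is given below where it ends a call, and for most differences that moved by over 1.5 times. Whether the lower sum of DP markers moved a value was not tested. In bulk samples, fewer cells of a type and less RNA per cell cannot be told apart.

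Sla2 was higher and Sla lower in the DP cells of both outer tissues than in thymus, and Txk was higher in adipose tissue than at either other site. Csk and Ptpn6 were lower in arch than in thymus, Ptpn22 had nearly the same mean in all 3 tissues, and Cblb and Ubash3a were called in no comparison. In a limma fit of log2(normalised read count + 20) over all 9106 genes, with Benjamini-Hochberg adjusted p under 0.05 as the call, 4 of the 8 genes were called in arch against thymus (1 higher and 3 lower), where 6.57% of all tested genes were called (3.99% higher and 2.58% lower). In adipose tissue against thymus 3 were called (2 higher and 1 lower), beside 2.84% of all tested genes (2.17% higher and 0.67% lower), and in arch against adipose tissue 1 was called (lower), beside 0.176% (0.0988% higher and 0.0769% lower). The pool values of the tissues did not overlap for 3, 4 and 2 of the 8 genes in these 3 comparisons, and for 13.2%, 10.5% and 5.35% of all tested genes. The median log2 difference of the 8 genes was -0.75, 0.25 and -0.50, against -0.20, -0.01 and -0.17 over all tested genes. Both comparisons with thymus use the same 4 thymus pools.

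**Figure D1:**
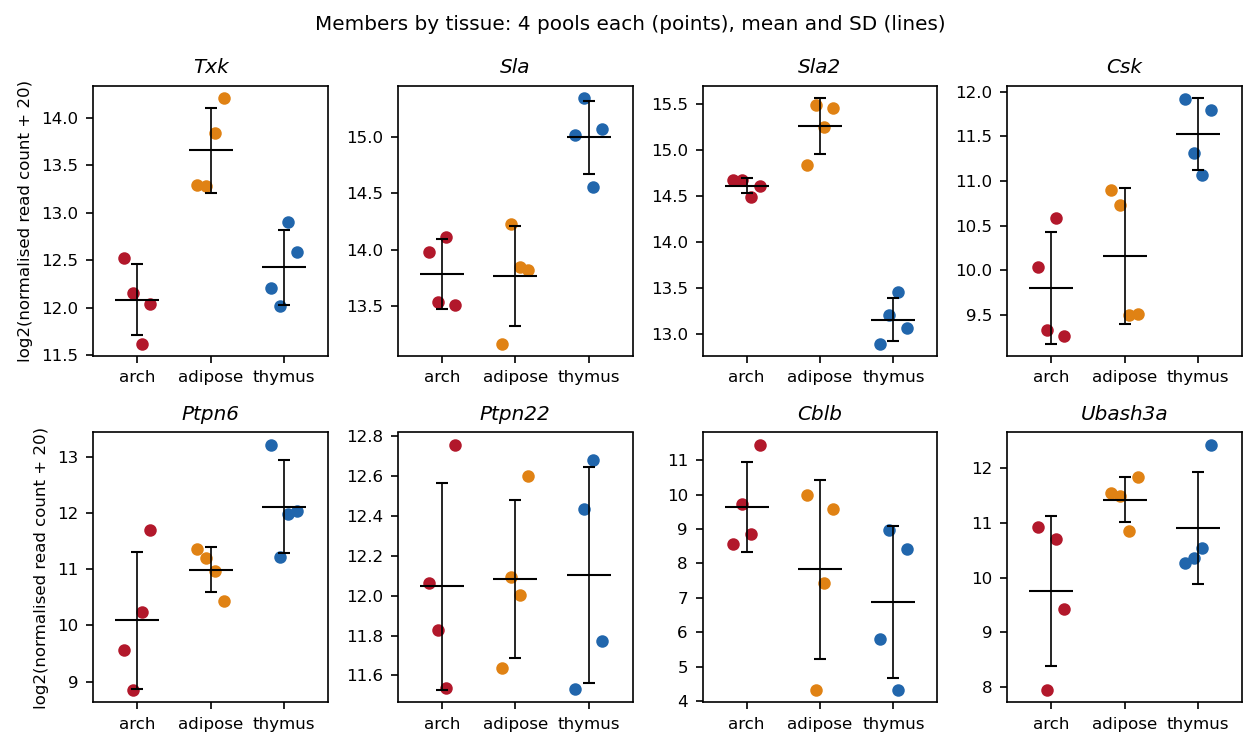
Values of the 8 genes as log2(normalised read count + 20), 1 point per pool, for arch, adipose tissue and thymus, with the mean and SD of 4 pools as lines; each panel has its own vertical range. Sla2 pools of both outer tissues lie above all thymus pools, Sla pools lie below them, and Txk stands out in adipose tissue.

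Txk lies at chr5:72695978-72752777 on the minus strand (GRCm38) and encodes a Tec family kinase expressed in T cells, also known as Rlk. It had 5875, 4556, 3137 and 4210 normalised counts in arch pools 1 to 4 and 10044, 9961, 14702 and 18896 in adipose pools. Thymus pools had 4712, 4123, 7637 and 6123. Every adipose pool was above every arch pool and every thymus pool, while arch and thymus overlapped. Adipose tissue averaged 13401 ± 4281 and thymus 5649 ± 1569 (SD), a log2 difference of 1.23 ± 0.28 (SE, adjusted p = 0.0172). Arch averaged 4444 ± 1129 (log2 difference against adipose tissue -1.57 ± 0.28, adjusted p = 0.0260), where Txk had rank 8 of all tested genes by p. Arch against thymus gave -0.34 ± 0.28 (adjusted p = 0.502).

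Both Txk calls were lost in some fits with 1 pool left out, although the differences kept their direction. Over these fits the log2 difference ranged from 1.05 to 1.39 in adipose tissue against thymus. In arch against adipose tissue it ranged from -1.72 to -1.39. The difference between adipose tissue and thymus missed the threshold without adipose pool 3 (adjusted p = 0.0695) or 4 (0.0941), or without thymus pool 1 (0.0577) or 2 (0.0656). That between arch and adipose tissue missed it without arch pool 2 (0.0701), 3 (0.0590) or 4 (0.0654), or without adipose pool 2 (0.0502), 3 (0.0862) or 4 (0.155). Without the pools with raised markers of other cells the log2 values were 1.35 in adipose tissue against thymus, still called, and -1.70 in arch against adipose tissue, not called with 2 arch pools left (adjusted p = 0.239). The call in arch against adipose tissue was lost in 3 of 12 alternative settings. The other losses were without the filter on low values and without the 3 pools with the fewest reads per library.

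Among other kinases of the family, Tec, which gives the family its name, had 627 to 2216 in arch, 969 to 3308 in adipose tissue and 1639 to 2779 in thymus and was called in no comparison (log2 -1.01 ± 0.47 in arch and 0.03 in adipose tissue against thymus). Btk, the B-cell member, was at 0 in 10 of 12 pools and reached 20.9 in adipose pool 1, the pool with raised B-cell markers.

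Sla, at chr15:66780819-66831829 on the minus strand, encodes the Src-like adaptor SLAP, which acts with c-Cbl to lower receptor levels on DP thymocytes. It had 16164, 11862, 17679 and 11627 normalised counts in arch, 9199, 19190, 14693 and 14478 in adipose tissue, against 33151, 41428, 24105 and 34237 in thymus. The lowest thymus pool was above the highest pool of either outer tissue. Arch averaged 14333 ± 3054 and thymus 33230 ± 7106 (log2 difference -1.21 ± 0.23, adjusted p = 0.00281). Adipose tissue averaged 14390 ± 4086 (log2 difference against thymus -1.23 ± 0.23, adjusted p = 0.00362). Between arch and adipose tissue the log2 difference was 0.02 ± 0.23 (adjusted p = 0.988). Both calls held in each of the fits with 1 pool left out and without the pools with raised markers (-0.95 in arch and -1.03 in adipose tissue against thymus). Sla lies within Tg, which runs on the opposite strand, but shares no exon base with it.

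Sla2, at chr2:156872457-156887192 on the minus strand, encodes the related adaptor SLAP-2. It had 25950, 26047, 22983 and 24925 normalised counts in arch and 29052, 45925, 38749 and 44977 in adipose tissue, against 7569, 9432, 11179 and 8509 in thymus. The 3 tissues did not overlap at all, with adipose tissue highest and thymus lowest. Arch averaged 24976 ± 1422 and thymus 9172 ± 1539, a log2 difference of 1.46 ± 0.18 (adjusted p = 3.73e-05). Adipose tissue averaged 39676 ± 7765, a log2 difference against thymus of 2.10 ± 0.18 (adjusted p = 7.33e-07), with rank 7 of 9106 by p. Both calls held in all 12 alternative settings and in all fits with 1 pool left out. Arch against adipose tissue gave -0.65 ± 0.18 and was not called by limma (adjusted p = 0.266), although the pools did not overlap; DESeq2 on the recovered reads called it (-0.66, adjusted p = 0.0106). The arch pools lay close together, with a coefficient of variation of 5.69%, and 0.307% of tested genes had a smaller one in arch.

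Sla2 shares 731 bp, or 23.6% of its merged exons, with Rab5if on the opposite strand, and whether reads were assigned by strand is not given in the sources used here. Rab5if, which the table lists under an older name, had 692 to 2029 normalised counts in the 12 pools, below every Sla2 value.

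Sla2 took a larger share of the summed level of both adaptors in the outer tissues than in thymus. Per kb of the longest annotated basic transcript, Sla2 made up 63.6 ± 5.82% of the summed level of both genes in arch (56.3% to 68.6%) and 73.5 ± 2.61% in adipose tissue (70.4% to 75.8%), against 22.1 ± 6.34% in thymus (18.4% to 31.5%). The ratio of Sla2 to Sla per kb was 1.29 to 2.18 in arch and 2.38 to 3.14 in adipose tissue, against 0.226 to 0.460 in thymus. The sum per kb was 13256 ± 859 in arch, 18220 ± 3901 in adipose tissue, against 14342 ± 2189 in thymus. The share depends on the gene length used: with the merged exons of all transcripts, Sla2 took 79.4% to 86.7% in arch, 87.6% to 90.3% in adipose tissue and 40.3% to 57.9% in thymus. With either length the share was lowest in the 4 thymus pools, but with merged exons Sla2 was above Sla in thymus pool 3.

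**Figure D2:**
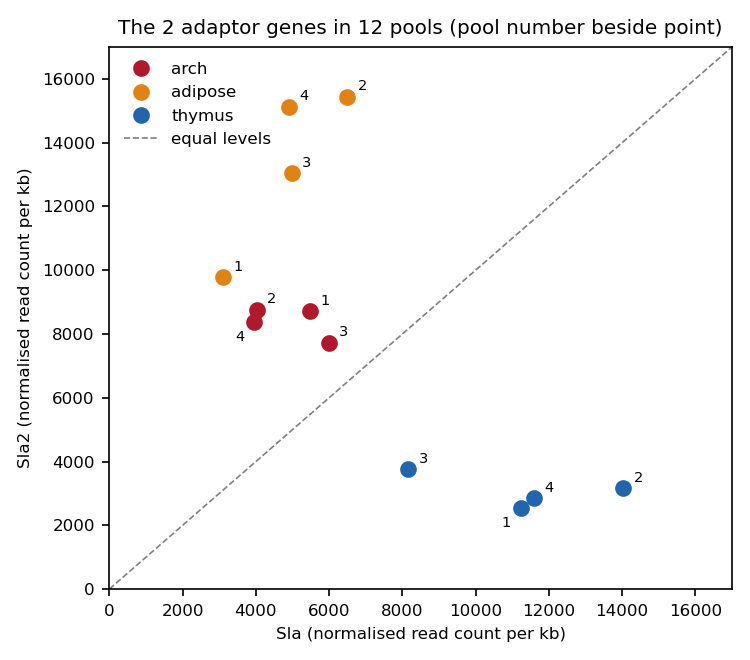
Sla2 (vertical) against Sla (horizontal), both as normalised read count per kb, 1 point per pool with the pool number beside it and the line of equal levels dashed. All arch and adipose pools lie above the line, all thymus pools lie below it, and thymus pool 3 has the lowest Sla and the highest Sla2 among thymus pools.

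Csk, at chr9:57626646-57653631 on the minus strand, encodes the kinase that holds Lck and Fyn inactive through their C-terminal tyrosine. It had 1028, 622, 1520 and 595 normalised counts in arch and 1894, 1682, 700 and 708 in adipose tissue, against 3869, 2535, 2127 and 3534 in thymus. Every pool of both outer tissues was below every thymus pool. Arch averaged 941 ± 434 and thymus 3016 ± 820 (log2 difference -1.72 ± 0.48, adjusted p = 0.0368). Adipose tissue averaged 1246 ± 632 and was not called against thymus (-1.37 ± 0.48, adjusted p = 0.170), except with limma-voom on the recovered reads (adjusted p = 0.0431). Between arch and adipose tissue the log2 difference of Csk was -0.36 ± 0.48 (adjusted p = 0.833). The arch call was close to the threshold. It was lost with edgeR (adjusted p = 0.0718), limma-voom (0.0970), without the filter on low values (0.0568) and without the 3 pools with the fewest reads per library (log2 -1.37, 0.179). It was also lost without arch pool 2 (0.0751) or 4 (0.0694), or without thymus pool 1 (0.114), 2 (0.0674) or 4 (0.105). Arch pools 2 and 4 had the lowest Csk values, few reads per library and raised markers of other cells; without the pools with raised markers the log2 difference was -1.22 (adjusted p = 0.191).

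Ptpn6, at chr6:124720707-124738714 on the minus strand, encodes the phosphatase SHP-1. It had 735, 441, 1191 and 3319 normalised counts in arch and 2606, 2332, 1983 and 1370 in adipose tissue, against 9482, 2358, 4026 and 4173 in thymus. Arch pool 4 was the highest arch pool and lay within the range of thymus, and thymus pool 1 was the highest of all 12. Arch averaged 1422 ± 1302 and thymus 5010 ± 3093 (log2 difference -2.02 ± 0.53, adjusted p = 0.0275). Adipose tissue averaged 2073 ± 533 and was not called against thymus (-1.12 ± 0.53, adjusted p = 0.388). Between arch and adipose tissue the log2 difference of Ptpn6 was -0.90 ± 0.53 (adjusted p = 0.561). The arch call was lost with edgeR (0.0932), limma-voom (0.0559), without the filter (0.0735) and in a fit of arch and thymus alone (0.0593). It was also lost without arch pool 1 (0.0590) or 2 (0.0751), or without thymus pool 1 (0.107), 3 (0.0545) or 4 (0.0629). Without the pools with raised markers it was -2.21 and still called. An antisense gene that is not in the table covers 6.96% of its merged exons.

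Ptpn22, at chr3:103859795-103912247 on the plus strand, encodes the phosphatase Pep (Lyp in humans), which acts on Lck and Zap70 and binds Csk. It had 4259, 3610, 2955 and 6908 normalised counts in arch, 3165, 4354, 4085 and 6197 in adipose tissue, against 2938, 5514, 6553 and 3482 in thymus. The 3 tissues overlapped broadly. Means were 4433 ± 1734, 4450 ± 1271 and 4622 ± 1699, and the log2 differences were -0.06 in arch and -0.02 in adipose tissue against thymus and -0.04 in arch against adipose tissue, each with an SE of 0.33. In arch against thymus the log2 difference was -0.30 without the pools with raised markers (adjusted p = 0.721). Over the 12 alternative settings, arch against adipose tissue ranged from -0.43 to 0.00384. The sign of the Ptpn22 differences changed with the setting, so no direction is given.

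Cblb, at chr16:52031225-52208048 on the plus strand, encodes the ubiquitin ligase Cbl-b, which sets the need for costimulation in mature T cells. It had 357, 835, 439 and 2771 normalised counts in arch and 1001, 0, 152 and 740 in adipose tissue, against 36.2, 485, 0 and 323 in thymus. Pools of the same tissue differed widely: the coefficient of variation was 103% in arch, 100.4% in adipose tissue, against 110.4% in thymus. A count of 0 in adipose pool 2 and thymus pool 3 allows up to 4.36 and 4.37 normalised counts (3 reads), which covers counting error only. Arch pool 4, the highest, is the pool with raised fibroblast markers. The log2 difference was 2.76 ± 1.31 in arch (adjusted p = 0.217) and 0.94 ± 1.31 in adipose tissue (adjusted p = 0.859) against thymus, and 1.82 ± 1.31 in arch against adipose tissue (adjusted p = 0.660). These values rest on few pools, and adipose pool 2 is 1 library. Against thymus they were 0.96 in arch and 0.09 in adipose tissue without the pools with the fewest reads per library, and 1.82 and 0.22 without those with raised markers. Leaving out 1 pool moved the adipose value between 0.09 (without thymus pool 3) and 2.11 (without adipose pool 2), and arch against adipose tissue was 0.65 without adipose pool 2 and 0.87 without the pools with the fewest reads per library.

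Ubash3a, at chr17:31207873-31246892 on the plus strand, encodes Sts-2 (TULA), a suppressor of receptor signalling of lymphocytes. It had 1914, 226, 1655 and 667 normalised counts in arch and 2955, 2849, 1825 and 3633 in adipose tissue, against 1216, 1299, 1473 and 5490 in thymus. Thymus pool 4 stood far above the other thymus pools, and arch pools 2 and 4, with few reads per library and raised markers of other cells, were the lowest of all 12. Arch averaged 1115 ± 800, adipose tissue 2816 ± 746 and thymus 2369 ± 2083. The log2 difference was -1.15 ± 0.61 in arch (adjusted p = 0.271) and 0.53 ± 0.61 in adipose tissue (adjusted p = 0.823) against thymus, and -1.68 ± 0.61 in arch against adipose tissue (adjusted p = 0.387). In arch against thymus the value was -0.55 without arch pool 2, -0.64 without thymus pool 4, -0.21 without the pools with the fewest reads per library and -0.09 without those with raised markers. In arch against adipose tissue it was -1.08 without arch pool 2 and -0.61 and -0.58 without those sets of pools, and in adipose tissue against thymus it was 1.03 without thymus pool 4 and 0.32 and 0.35 without thymus pools 1 and 2.

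**Figure D3:**
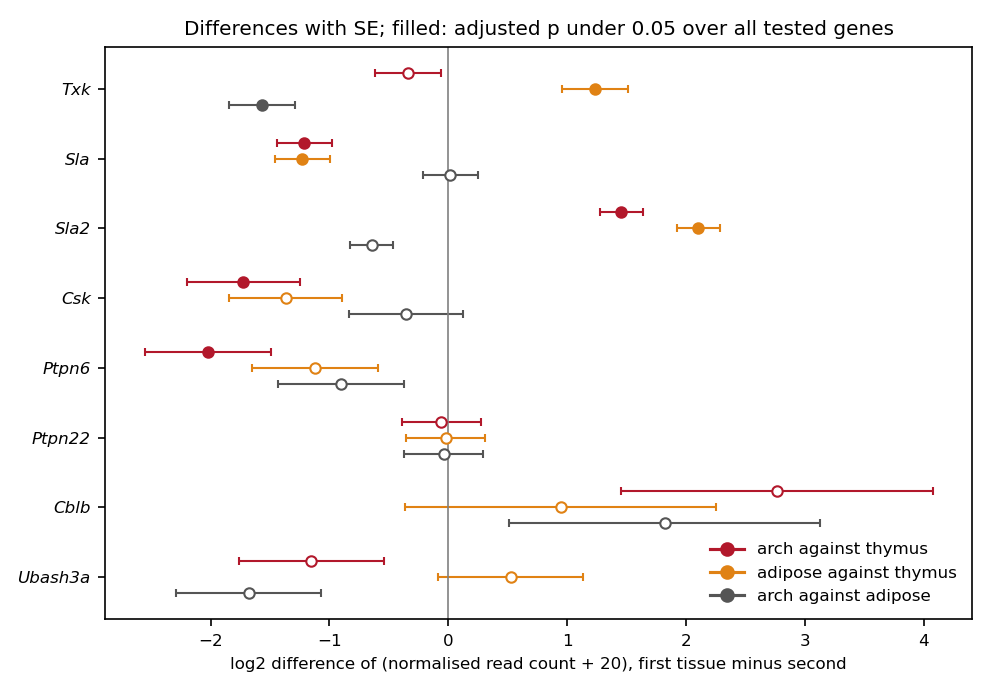
Log2 differences of (normalised read count + 20) for the 8 genes with their SE as bars, in arch against thymus, adipose tissue against thymus and arch against adipose tissue, first tissue minus second; filled points have an adjusted p under 0.05 over all tested genes. Sla and Sla2 lie on opposite sides of 0 in both comparisons with thymus, and the bars of Cblb are the widest.

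RefSeq's promoter windows on GRCm38.p6 held 7 of the 8 genes, all but Sla. The stretches upstream of all annotated starts are shown for 3 genes called in arch against thymus. Sla2 was the 1 gene called higher, and Csk and Ptpn6 were 2 of the 3 called lower, Sla being the other. The stretches are Sla2 at chr2:156887251-156887471, Csk at chr9:57653632-57653881 and Ptpn6 at chr6:124738715-124738959, all on the minus strand, 221, 250 and 245 bp long. Capitals mark matches, on either strand, to the E-box CANNTG, the AP-1 site TGANTCA, the CRE half-site TGACG and the ETS core GGAAG.
Sla2: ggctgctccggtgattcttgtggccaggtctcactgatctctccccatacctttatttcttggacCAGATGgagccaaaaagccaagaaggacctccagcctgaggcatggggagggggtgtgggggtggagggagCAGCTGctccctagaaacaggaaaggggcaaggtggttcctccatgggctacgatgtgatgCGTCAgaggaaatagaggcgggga
Csk: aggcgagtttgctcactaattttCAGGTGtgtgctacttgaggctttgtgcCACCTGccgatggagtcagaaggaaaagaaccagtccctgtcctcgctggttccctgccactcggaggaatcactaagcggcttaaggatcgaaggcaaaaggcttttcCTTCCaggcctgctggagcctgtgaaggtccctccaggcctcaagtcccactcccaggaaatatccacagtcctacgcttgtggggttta
Ptpn6: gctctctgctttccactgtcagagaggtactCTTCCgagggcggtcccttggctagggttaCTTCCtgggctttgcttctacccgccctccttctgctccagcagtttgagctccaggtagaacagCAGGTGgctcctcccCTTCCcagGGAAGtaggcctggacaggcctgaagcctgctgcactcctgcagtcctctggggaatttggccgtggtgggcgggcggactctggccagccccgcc

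The Sla2 stretch held 2 E-boxes and 1 CRE half-site and no match to the ETS core or the AP-1 site. Over 32851 RefSeq windows cut to the same 221 bases, 62.25% held an E-box, 14.96% a CRE half-site, 58.78% an ETS core and 6.131% an AP-1 site. The Csk stretch held 2 E-boxes (66.22% of windows of that length held at least 1) and 1 ETS core (64.07%). The Ptpn6 stretch held 1 E-box (65.67% of windows of that length) and 4 ETS cores (63.13% held at least 1). Neither held a CRE half-site or an AP-1 site. No match overlapped another, and a match describes these letters only.

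Set on a scale per kb of the longest annotated basic transcript, which adjusts for gene length only, Sla2 was the highest of the 8 in arch and in adipose tissue and Sla the highest in thymus. In arch the mean order was Sla2 (8401 normalised counts per kb), Sla (4855), Txk (1896), Ptpn22 (1616), Ptpn6 (616), Csk (342), Cblb (166) and Ubash3a (146). Only Sla2 and Sla, and Sla and Txk, were neighbours whose pools did not overlap. In adipose tissue the order was Sla2 (13345), Txk (5717), Sla (4875), Ptpn22 (1622), Ptpn6 (898), Csk (453), Ubash3a (369) and Cblb (71.2). The pools there were apart between Sla2 and Txk, Sla and Ptpn22, Ptpn22 and Ptpn6, and Ubash3a and Cblb. In thymus the order was Sla (11257), Sla2 (3085), Txk (2410), Ptpn6 (2171), Ptpn22 (1685), Csk (1097), Ubash3a (310) and Cblb (31.7), with pools apart between Sla and Sla2, Csk and Ubash3a, and Ubash3a and Cblb. The order depends on the length used. Per kb of merged exons Sla2 in arch and adipose tissue and Sla in thymus were still the highest, but Txk had 406 in arch, below Ptpn22 and Ptpn6, 1223 in adipose tissue, below Sla (1566), and 516 in thymus, below Ptpn6 (1788), Csk (807) and Ptpn22 (682). Per kb of the longest transcript, Sla in thymus stood above 99.0% of the genes with an annotated length, Sla2 above 99.1% in adipose tissue and Cblb above 35.4% in thymus. Reads behind the lowest of these levels were still 1104 over the 4 thymus pools.

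By Pearson correlation of log2(normalised read count + 20) over the 12 pools, which share tissue and depth, the genes most like each member were named as a description. Sla was closest to Ldhb (r = 0.974), a lactate dehydrogenase subunit, and to the adaptor Skap1 (r = 0.950). Ldhb had 18592 to 23127 normalised counts in arch, 17615 to 27589 in adipose tissue and 37195 to 45218 in thymus. Sla2 was closest to Prdx6 (r = 0.971), a peroxiredoxin, and to the stress kinase Map3k5 (r = 0.959). Prdx6 had 22059 to 27778 in arch and 28234 to 40941 in adipose tissue, against 4927 to 8645 in thymus, and Map3k5 had 109 to 664 in arch and 524 to 1193 in adipose tissue and was at 0 in all 4 thymus pools.
Txk was closest to Wdpcp (r = 0.882) and Ppp1r13b (r = 0.844), and Csk to the AMP deaminase Ampd1 (r = 0.880) and the cyclin Ccnd3 (r = 0.877). Ptpn6 was closest to Lrwd1 (r = 0.964) and the ETS factor Fli1 (r = 0.920), and Ptpn22 to Zc3h8 (r = 0.880) and the proteasome subunit Psmc2 (r = 0.866). Cblb was closest to Cno (r = 0.919) and Ski (r = 0.909), and Ubash3a to the MAP kinase kinase Map2k1 (r = 0.929) and Rnf187 (r = 0.909).

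The wider pathway was read off the same fit with lists of other brakes, of the proximal machinery, of Src family kinases and of genes that receptor signals induce. Among the other brakes of receptor signalling, 34 of 38 listed genes were tested. In arch against thymus 2 rose and 1 fell, with a list median of -0.43 on the log2 scale (-0.20 over all tested genes); of all tested genes 3.99% were called higher and 2.58% lower. Ctla4, the inhibitory receptor that competes with Cd28, had 713, 1976, 906 and 401 normalised counts in arch and 855, 2557, 975 and 1635 in adipose tissue. In thymus it was at 109 in pool 2 and at 0 in the others. Its log2 difference was 4.77 ± 0.91 in arch (adjusted p = 0.00286) and 5.44 ± 0.91 in adipose tissue (adjusted p = 0.00122). Spry1, an inhibitor of Ras signalling, rose in arch (543 to 999, against 0 to 268 in thymus, log2 4.41, adjusted p = 0.0237), and missed the threshold without arch pool 2 (0.0519) or thymus pool 1 (0.0736), 2 (0.0698) or 3 (0.0634). Dgka, which removes diacylglycerol, fell in arch (5094 to 7713, against 10091 to 16863 in thymus, log2 -1.05, adjusted p = 0.0103).

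In adipose tissue against thymus 1 of the 34 brakes rose (Ctla4) and 2 fell, with a list median of -0.07 (-0.01 over all tested genes); of all tested genes 2.17% were called higher and 0.67% lower. Cd5, an inhibitory co-receptor whose level follows receptor signal strength, had 484 to 2401 in adipose tissue and 5480 to 9433 in thymus (log2 -2.10, adjusted p = 0.0208). It missed the threshold without adipose pool 4 (0.0681) or thymus pool 1 (0.0776) or 2 (0.0511). Rasal3, a Ras GTPase activating protein, had 548 to 2854 in adipose tissue and 4801 to 9471 in thymus (log2 -2.00, adjusted p = 0.0227), and missed it without adipose pool 3 (0.0752) or thymus pool 1 (0.0877), 3 (0.0511) or 4 (0.0534). In arch against adipose tissue limma and edgeR called none of the 72 tested genes on the lists, beside 0.176% of all tested genes, with 11 (limma) and 7 (edgeR) at an unadjusted p under 0.05.

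Of the 26 genes of the proximal machinery, all tested, 1 rose and 6 fell in arch against thymus, where 6.57% of all tested genes were called, with a list median of -0.48 (-0.20 over all tested genes). In adipose tissue 1 rose and 2 fell, where 2.84% of all tested genes were called, with a list median of -0.50 (-0.01). The genes that fell in arch were led by Vav1, a guanine nucleotide exchange factor, with 727 to 2930 normalised counts in arch and 4808 to 6730 in thymus (log2 -2.04, adjusted p = 0.00315). Lck, the substrate of Csk, had 21190 to 56055 in arch and 61077 to 80955 in thymus (log2 -0.93, adjusted p = 0.0130). It was also the 1 called gene among 3 tested Src family kinases. Syk had 32.3 in arch pool 3 and 0 in the other arch pools, against 273 to 739 in thymus (log2 -4.24, adjusted p = 0.0170, 0.0508 without thymus pool 2). Skap1 had 7348 to 10283 in arch and 10511 to 20122 in thymus (log2 -0.93, adjusted p = 0.0211), and missed the threshold without thymus pool 1 (0.0717) or 2 (0.0777). The adaptor Grap2 (Gads), named after its values were seen because it was the 1 gene of the list that rose in arch, had 1379 to 2513 in arch and 117 to 655 in thymus (log2 2.52, adjusted p = 0.0235). It missed the threshold without arch pool 3 (0.0647) or thymus pool 2 (0.0551) or 3 (0.0582).

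In adipose tissue the adaptor Fyb (ADAP) rose, with 13922 to 17207 normalised counts against 6298 to 7577 in thymus (log2 1.13, adjusted p = 0.000940). The adaptor Lcp2 (SLP-76) fell, with 2979 to 6188 in adipose tissue and 8795 to 17885 in thymus (log2 -1.50, adjusted p = 0.00615). Rasgrp1, the Ras activator downstream of phospholipase C gamma, had 2432 to 5895 in adipose tissue and 7182 to 9269 in thymus (log2 -1.24, adjusted p = 0.0253). Rasgrp1 stayed called in 1 of 8 fits with a pool of either tissue left out, the one without adipose pool 2, and reached 0.109 without adipose pool 4.

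Among 10 tested genes that receptor signals induce, 2 rose in arch against thymus, and 2 rose and 1 fell in adipose tissue, where 6.57% and 2.84% of all tested genes were called. The list medians were 0.34 and 0.21, against -0.20 and -0.01 over all tested genes. Nr4a1 (Nur77), an immediate early gene of receptor signalling, had 35068, 13679, 19383 and 19562 normalised counts in arch and 20685, 9521, 11515 and 8571 in adipose tissue, against 4498, 1996, 1.46 and 395 in thymus. The log2 difference was 5.28 ± 1.02 in arch (adjusted p = 0.00326) and 4.47 ± 1.02 in adipose tissue (adjusted p = 0.0186), the second of which missed the threshold without adipose pool 1 (0.0730) or 3 (0.0519) or thymus pool 4 (0.0509). Dusp5, a phosphatase of ERK, had 687 to 4397 in arch and 2290 to 3945 in adipose tissue, against 147 to 384 in thymus (log2 2.47 and 3.40, adjusted p = 0.0140 and 0.00152); the arch value reached 0.0524 without arch pool 1. Egr1, another immediate early gene, was lower in adipose tissue, with 58.4 to 1797 against 1990 to 7121 in thymus (log2 -3.51, adjusted p = 0.0199). Egr1 missed the threshold without adipose pool 3 (0.0752) or 4 (0.0724) or thymus pool 1 (0.0824) or 2 (0.0739). Enzymatic digestion, which the labels state for arch and adipose tissue and not for thymus, cannot be told apart from tissue here.

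**Figure D4:**
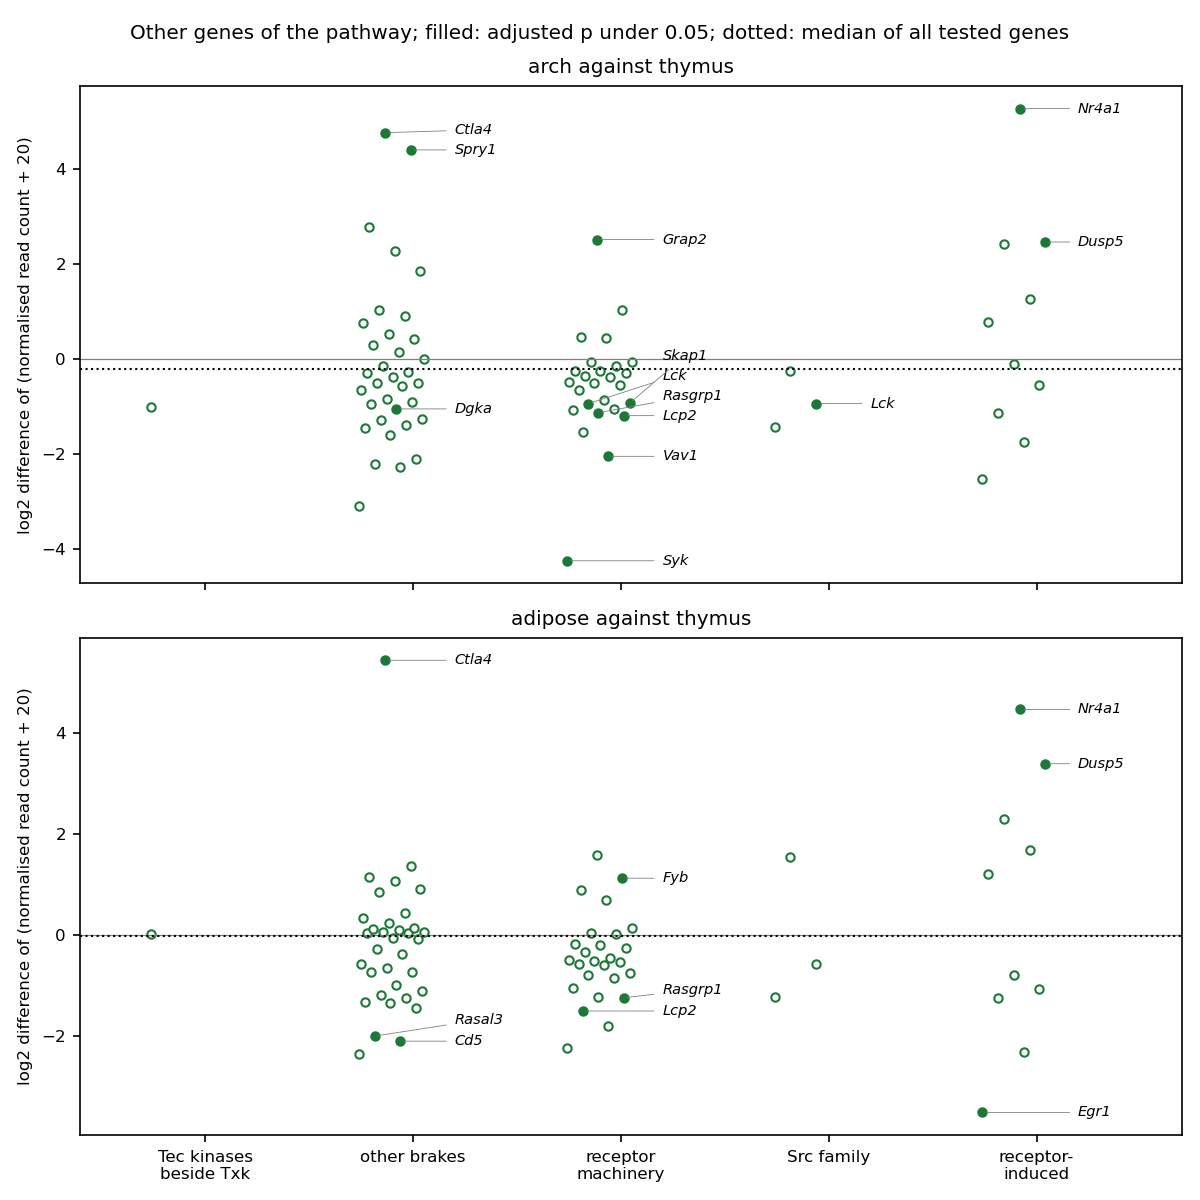
Log2 differences of (normalised read count + 20) for the other genes of the pathway in 5 lists, arch against thymus above and adipose tissue against thymus below, 1 point per tested gene; filled and named points have an adjusted p under 0.05, and the dotted line is the median of all tested genes. Ctla4, Nr4a1 and Dusp5 are higher in both panels, Lcp2 and Rasgrp1 are lower in both, and most points of the lists of other brakes and receptor machinery are not called.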

How the data were processed

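Per the labels' protocols, polyadenylated RNA of 200 sorted cells per library was amplified for 18 cycles and read as 50 bp single ends. Per the submitters' processing notes, FastQC 0.11.5, STAR 2.6.0c and the build GRCm38 were used. The sources used here do not give the counter, its strand setting or the annotation. Per gene and pool, the deposited value is a normalised signal: in each column all values are whole multiples of 1 step (100% of 120369 values above 0 within 0.01), so the authors' counts were recovered for the count-based alternatives. The libraries of a pool had been combined by the authors, and no column was left unused.

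Genes with at least 100 normalised counts in at least 4 columns were tested with limma 3.58.1 (R 4.3.3, intensity trend) on log2(value + 20) in 1 fit of 12 columns with tissue as the only term. P-values were adjusted by the Benjamini-Hochberg method over all 9106 genes and called under 0.05. The pseudocount understates the change of low genes. The pool of 5 mice is the replicate (4 per tissue), so p-values set a difference against the spread between pools of the same tissue. That spread also holds differences between libraries, as a pool has 1 to 3 of them. The alternatives used edgeR 4.0.16, DESeq2 1.42.0, limma-voom, other pseudocounts and filters, and fewer pools. The scripts were tested on simulated data. Reads carry no molecular identifiers.

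Gene coordinates and lengths are from GENCODE's annotation of GRCm38. Genes were named by rule: the 8 symbols, the Tec kinases, up to 4 called genes per list and comparison with the smallest p, and the 2 genes most correlated with each symbol; 1 gene that the rule names is not reported here. The members, the lists and the pools left out were chosen with earlier results of these data known.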

Additional observations from a re-analysis of the deposited data

Results flagged for a closer look

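Ubash3a stood apart in thymus pool 4, where it had 5490 normalised counts against 1216 to 1473 in the other 3 thymus pools. The gap to the next pool was 0.940 of the whole range of thymus, above Dixon's 95% critical value for 4 samples. It was the only 1 of 24 sets of pools (8 genes in 3 tissues) to do so, and chance gives about 1 in 20.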

How the results depend on the processing

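The calls of Sla and Sla2 against thymus kept direction and side of the threshold under all 12 alternatives and in every fit with 1 pool left out; those of Csk, Ptpn6 and Txk did not, as given above. For calls that changed, the cause was not tested beyond the settings' own construction (fewer pools, fewer or more genes tested). In arch against thymus, where 598 genes were called, edgeR called 365, DESeq2 1007, the fit without the 3 pools with the fewest reads per library 308, that without the pools with raised markers 345, and fits with 1 pool left out 404 to 620. In adipose tissue against thymus (259 called) DESeq2 called 539 and fits with 1 pool left out 169 to 317. In arch against adipose tissue (16 called) edgeR called 8, DESeq2 168, a pseudocount of 1 gave 9, no filter 2 and fits with 1 pool left out 2 to 17. Limma without the shallow pools and without the pools with raised markers called 0, with 627 and 570 genes at an unadjusted p under 0.05.

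Of the 8 genes, edgeR, limma-voom and the fit without a filter called 2 in arch against thymus (4 called), and fits with 1 pool left out called 2 to 4. In adipose tissue against thymus (3 called) those fits called 2 to 3. In arch against adipose tissue (1 called) DESeq2 called 2, and limma without a filter, without the shallow pools and without the pools with raised markers called 0, with 3, 3 and 2 at an unadjusted p under 0.05; fits with 1 pool left out called 0 to 1. Of the pathway lists edgeR called 5 and 3 genes in arch and in adipose tissue against thymus (12 and 9 called), and limma without the shallow pools called 4 and 14.

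Differences near 0 changed sign. For Ptpn22 in adipose tissue against thymus they were 0.0182 with TMM scaling, 0.0841 with limma-voom, 0.17 without the shallow pools and 0.13 without the pools with raised markers (-0.21 to 0.17 with 1 pool left out). Ptpn22 gave 0.00384 with DESeq2 in arch against adipose tissue (-0.28 to 0.13 with 1 pool left out) and -0.30 to 0.13 in arch against thymus with 1 pool left out. In arch against adipose tissue Sla gave -0.00712 with TMM scaling and -0.0201 with edgeR (-0.18 to 0.17 with 1 pool left out), and Csk 0.15 without the shallow pools and 0.40 without the pools with raised markers. edgeR and DESeq2 moved the median of all genes by 0.15 in arch against thymus, and by 0.12 and 0.14 in arch against adipose tissue. Without the pools with raised markers it moved by 0.19 and 0.18 in these 2 comparisons, to -0.01 and 0.01. Leaving out the shallow pools moved it by 0.15 and 0.18, and no filter moved it by 0.20 in arch against thymus.

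The labels do not say whether same-numbered pools of the 3 tissues came from the same mice. Deviations of same-numbered pools correlated between -0.03 and 0.08, so the number was not used as a pairing. With the number as a replicate block 608, 243 and 12 genes were called in the 3 comparisons and the counts of the 8 genes stayed at 4, 3 and 1. Cblb, with 0 reads in 2 pools, had the fewest reads of the 8 genes in each tissue.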
